A study of Mus musculus with 2 samples.

Results

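Globins are heme proteins that bind oxygen. Adult hemoglobin, the oxygen carrier of red blood cells, is a tetramer of alpha chains and beta chains, and each kind of chain is encoded by more than 1 gene. Other alpha-like and beta-like genes serve the embryo and are silenced before birth. Myoglobin is a single-chain globin of heart and red skeletal muscle that stores oxygen and removes nitric oxide, cytoglobin is found mainly in fibroblast-like cells and pericytes, and neuroglobin in neurons. The set described here holds 10 genes chosen by symbol, and all 10 were found among the 55536 genes of the deposited tables. They are the adult alpha genes Hba-a1 and Hba-a2, the adult beta genes Hbb-bs and Hbb-bt, the embryonic genes Hba-x, Hbb-y and Hbb-bh1, and Mb, Cygb and Ngb, which encode myoglobin, cytoglobin and neuroglobin.

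The samples were heart tissue of 2 male B6CASTF1/J mice supplied by The Jackson Laboratory. B6CASTF1/J is an F1 cross in which each animal has B6 and Cast alleles. Both mice were 2 months old and untreated as far as the labels say, and the labels number the males separately while giving both the same donor entry. Total RNA, 300 ng per library with ribosomal RNA reduced and ERCC spike-in RNA added, was sequenced as 1 library per heart, called replicate 1 and replicate 2. The libraries held 39177981 and 44544839 estimated reads, including 214409 and 223665 on spike-ins. With 1 group and 1 library per mouse there was no treatment contrast and no test: levels are given in both hearts with their mean and SD (n = 2), and the hearts are compared by the ratio of replicate 1 over replicate 2. That ratio was taken for the 12453 genes with a mean of at least 50 estimated reads, and 2-fold was the threshold. Intervals on it are 95% exact counting intervals, which cover counting error only and not the spread among mice. The annotation is of the B6 genome, so reads of Cast alleles were counted against B6 sequence and the alleles were not separated.

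The adult genes come in pairs that are almost the same sequence, which limits how reads can be split between them. The coding sequences of Hba-a1 (ENSMUSG00000069919.7, chromosome 11, 32283511 to 32284465 in mm10) and Hba-a2 (ENSMUSG00000069917.7, chromosome 11, 32296489 to 32297298) are each 429 bases long with the stop codon and are identical at 428 of them. Their single difference is C381T, counted from 1 at the A of the start codon, with the base of Hba-a1 first. Hbb-bs (ENSMUSG00000052305.6, chromosome 7, 103826534 to 103828096) and Hbb-bt (ENSMUSG00000073940.3, chromosome 7, 103812524 to 103813996) each code over 444 bases and are identical at 443, with the single difference C417T (the base of Hbb-bs first). Both differences fall on the last base of a codon. The stretches around them are given because they hold all that separates each pair within the annotated B6 coding sequence. Cast sequences were not compared. They come from the GENCODE M21 transcripts, are written 5′ to 3′ on the coding strand, and carry the differing base in capitals. They cover coding bases 351 to 411 of the alpha genes and 387 to 444 of the beta genes.
Hba-a1: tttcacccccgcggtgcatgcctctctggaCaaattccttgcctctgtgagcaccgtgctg
Hba-a2: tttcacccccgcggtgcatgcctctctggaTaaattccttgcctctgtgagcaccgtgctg
Hbb-bs: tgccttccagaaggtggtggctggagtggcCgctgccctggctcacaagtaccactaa
Hbb-bt: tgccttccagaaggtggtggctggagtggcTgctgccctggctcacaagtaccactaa

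Outside the pairs the coding sequences were far apart. Alpha and beta were 64.4% identical (Hba-a1 against Hbb-bs, over 413 aligned bases), Hba-a1 and the embryonic Hba-x 68.0%, and Hbb-bs and the embryonic Hbb-y 74.3%. Mb was 62.2% identical to Hba-a1 (394 aligned bases, 106 gap columns) and 61.3% to Hbb-bs (411 aligned bases, 87 gap columns). Gap columns are left out of these percentages. Hbb-bh1 and Cygb came to 65.5% in the same way, so values in this range do not rank how related the genes are. Of the 600 windows of 100 bases in the main Hba-a1 transcript, 339 (56.5%) also occurred in a transcript of Hba-a2 and in no other gene, and 165 occurred in no other annotated transcript. The main Hba-a2 transcript had 455 such windows, of which 20 (4.40%) were unique to it. In the main transcript of Hbb-bs 198 of 529 windows (37.4%) were unique, and in that of Hbb-bt 273 of 604 (45.2%). No window of Mb, Cygb, Ngb, Hba-x, Hbb-y or Hbb-bh1 occurred in a transcript of another gene.

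The adult hemoglobin genes were among the most abundant messages of both hearts, and their levels were higher in replicate 1 than in replicate 2. Hbb-bs, the more abundant beta gene, reached 7512 TPM (a level per transcript length and per library) in replicate 1, against 2215 TPM in replicate 2. For Hba-a1 the levels were 6118 TPM in replicate 1 against 2051 TPM in replicate 2. Hba-a2 was at 5905 TPM in the heart of replicate 1 and at 1907 TPM in that of replicate 2. Hbb-bt, the less abundant beta gene, reached 731 TPM in replicate 1, against 214 TPM in replicate 2. Replicate 1 was the high heart for each of the 4 genes. Features linked to ribosomal RNA were also higher in that library: Gm42418, a lincRNA gene known to collect ribosomal RNA reads, held 1023859 reads in replicate 1 and 200967 in replicate 2, and the rRNA gene CT010467.1 held 530 in replicate 1 and 113 in replicate 2. Lars2, a mitochondrial leucyl-tRNA synthetase gene, held 156999 reads in replicate 1 and 19572 in replicate 2. Their part in the hemoglobin difference was not tested. Among the 22015 nuclear protein-coding genes in replicate 1, Hbb-bs ranked 3, Hba-a1 5, Hba-a2 6 and Hbb-bt 55 by TPM. In replicate 2 their ranks were 13, 16, 17 and 279. The mean levels were 4864 ± 3745 TPM for Hbb-bs, 4085 ± 2876 for Hba-a1, 3906 ± 2827 for Hba-a2 and 473 ± 366 for Hbb-bt (SD, n = 2). The SD came to between 70.4% and 77.4% of the mean, against 1.92% for Mb.

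**Figure D1:**
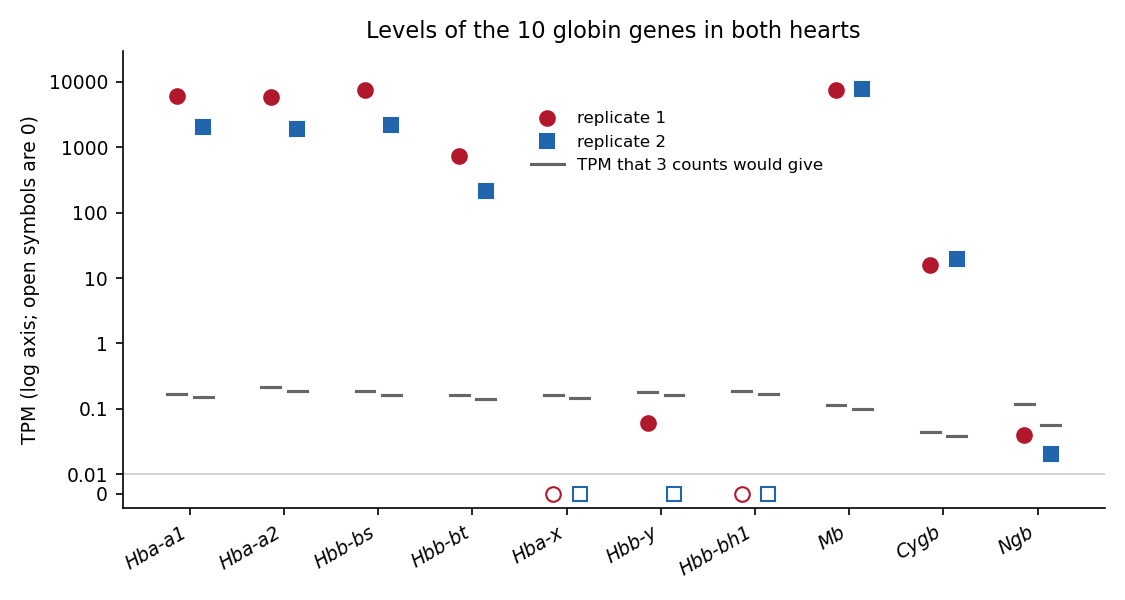
Level of each globin gene in TPM (log axis) in the heart of replicate 1 (red circles) and replicate 2 (blue squares). Open symbols are genes listed at 0, and short grey lines mark the TPM that 3 reads would give in that library. The 4 adult hemoglobin genes lie higher in replicate 1, Mb lies at 7575 and 7784 TPM, and the 3 embryonic genes and Ngb lie under the grey lines.

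Summed, the 4 adult genes made 20266 TPM in replicate 1 and 6387 in replicate 2. That was 5.24% of the TPM of nuclear protein-coding genes in replicate 1 and 1.62% in replicate 2, or 3.43 ± 2.56% (SD, n = 2). In estimated reads the share was 1.41% in replicate 1 (95% Wilson interval 1.41 to 1.42%) and 0.432% in replicate 2 (0.429 to 0.434%). The share by reads was lower than that by TPM, which divides by length, and these transcripts are short. Adult hemoglobin stood 2.68 times over Mb in TPM in replicate 1, and at 0.821 of Mb in replicate 2. In whole-tissue RNA a lower level may mean fewer cells of a type or less RNA per cell, and these cannot be told apart.

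As a ratio of scaled reads, Hbb-bt was 3.54-fold higher in replicate 1 (log2 ratio 1.82, interval 1.77 to 1.87) and Hbb-bs 3.52-fold (1.81, interval 1.80 to 1.83). Hba-a2 was 3.21-fold higher (1.68, interval 1.66 to 1.70) and Hba-a1 3.11-fold (1.64, interval 1.62 to 1.65). These were 4 of the 6 globin genes with enough reads to be compared. Across all 12453 genes, 0.369% reached 2-fold with the higher value in replicate 1 and 0.201% with the higher value in replicate 2, and no globin gene was among those higher in replicate 2. Ranked from the highest ratio, Hbb-bt, Hbb-bs, Hba-a2 and Hba-a1 held places 17, 18, 20 and 21. The order of Hba-a2 and Hba-a1 depended on the quantifier: the second quantifier gave log2 ratios of 1.66 for Hba-a1 and 1.55 for Hba-a2. All 4 counting intervals lay above 2-fold. The log2 ratios stayed between 1.47 and 1.85 with each other scaling run, with the second quantifier and with a larger prior count. The lowest values came from scaling by the spike-ins, which moved the median log2 ratio of all genes to -0.18, against -0.01 with the main scaling.

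The beta genes differed more between the hearts than the alpha genes did. Alpha over beta was 1.46 in TPM in replicate 1 and 1.63 in replicate 2, or 1.54 ± 0.12 (SD, n = 2). By reads the ratio of alpha to beta in replicate 1 was 0.896 of that in replicate 2, a log2 difference of -0.158 with a 95% Wald interval for counting error of -0.178 to -0.138. The transcript table made directly from reads gave 0.891 for the same quantity (log2 difference -0.167, interval -0.187 to -0.147). In TPM that table put alpha over beta itself lower, at 1.14 in replicate 1 and 1.29 in replicate 2. By reads it gave 1.39 in replicate 1 and 1.56 in replicate 2, against 1.42 and 1.58 in the gene table. The ratio was therefore lower in replicate 1 in both tables, whereas its size in TPM depended on the table. With 2 mice the spread of this ratio among mice is not known beyond these values.

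Within the beta pair the split was nearly the same in both hearts. Hbb-bt made 8.87% of the beta TPM in replicate 1 and 8.81% in replicate 2, and Hbb-bs exceeded Hbb-bt 10.3-fold in TPM in both. As a share of beta reads the 95% Wilson interval for Hbb-bt was 9.90 to 10.2% in replicate 1 and 9.73 to 10.3% in replicate 2. Within the alpha pair Hba-a1 made 56.8% of the reads in replicate 1 (56.6 to 57.1%) and 57.6% in replicate 2 (57.2 to 57.9%). These intervals treat each assigned read as certain, which it was not. The deposited posterior SD of the count was 405 reads for Hba-a1 and also for Hba-a2 in replicate 1, and 243 for both in replicate 2. For Hbb-bs and Hbb-bt it was 135 in replicate 1 and 70.5 in replicate 2, again equal within the pair, whereas it was 0 for Mb and Cygb.

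The 2 quantifiers gave each pair nearly the same number of reads and divided it differently. The alpha genes together held 192948 reads in replicate 1 and 71929 in replicate 2 in the gene table, against 187773 and 70182 in the table made directly from reads. Yet Hba-a1 took 85.5% of the alpha reads in replicate 1 and 84.6% in replicate 2 in the direct table. The beta genes together held 136093 reads in replicate 1 and 45472 in replicate 2 in the gene table, against 134819 and 44890 in the direct table. There the share of Hbb-bt in the beta reads was 16.8% in replicate 1 and 16.4% in replicate 2. The level of a single gene within a pair is thus an estimate that moved with the quantifier, whereas the sum of a pair was nearly fixed. The annotated starts of the pair also differ: the main GENCODE transcript of Hba-a1 has 196 bases before the start codon and that of Hba-a2 has 35.

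**Figure D2:**
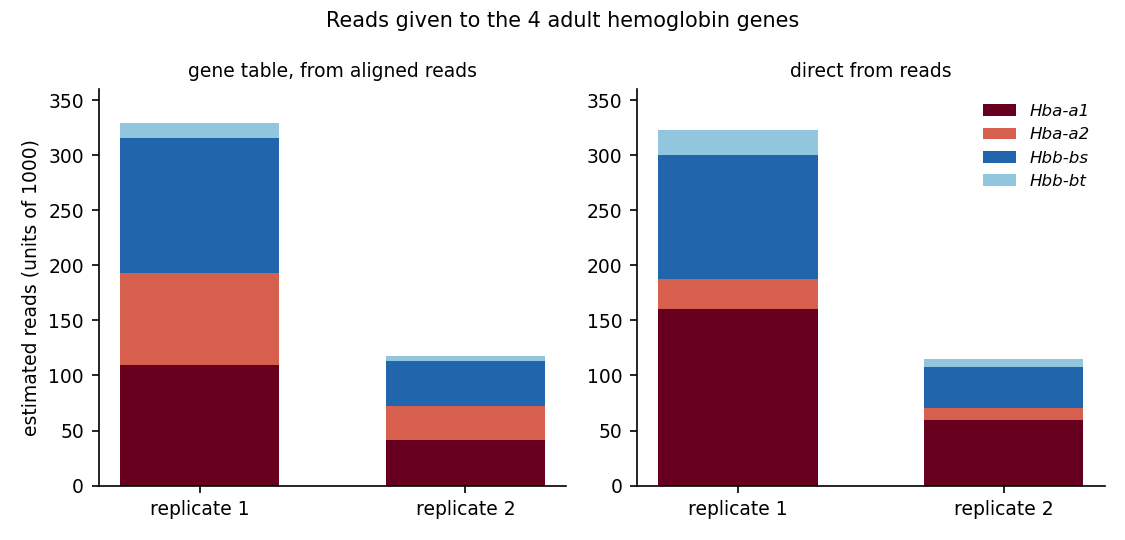
Estimated reads, in units of 1000 reads, given to Hba-a1, Hba-a2, Hbb-bs and Hbb-bt, stacked, in replicate 1 (left bar) and replicate 2 (right bar), from the gene table and from the table made directly from reads. The alpha sums are 192948 and 71929 reads in the gene table and 187773 and 70182 in the direct table, while the part given to Hba-a2 shrinks in the direct table.

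Minor transcripts of the adult genes depended on the table as well. Hba-a1-202, an annotated retained-intron transcript, held 10.5% of Hba-a1 TPM in replicate 1 and 12.8% in replicate 2 in the table from aligned reads, and 0 in both hearts in the direct table. Hbb-bs-203, a coding transcript with another first exon, held 0.0515% of Hbb-bs TPM in replicate 1 and 0.0560% in replicate 2 in the table from aligned reads. In the direct table it held 18.5% in replicate 1 and 18.6% in replicate 2. The tables thus gave no common share for either transcript. Processed and unprocessed copies of the alpha genes took almost no reads. The pseudogenes Hba-ps3 and Hba-ps4 were listed at 0 in both hearts in the gene table. In the direct table Hba-ps3 held 6 reads in replicate 1 and 2 in replicate 2, and Hba-ps4 held 11 in replicate 1 and 4 in replicate 2.

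The promoters of the adult genes are shown as a description of their sequence, and their part in the difference between the hearts was not tested. RefSeq promoter windows of GRCm38.p6, from 250 bases before the start site to 50 after it, matched 7 of the 10 genes. Capitals mark matches, on either strand, to 4 short motifs named in textbooks for globin promoters, which are the CACCC box, the CCAAT box, the TATAA box and the GATA site as GATAAG. The first stretch runs from 100 to 4 bases before the start site of Hba-a2 (chr11:32296392-32296488, plus strand), the second from 90 bases before to the start site of Hbb-bs (chr7:103827929-103828018, minus strand), and the third covers the 100 bases before the start site of the Mb transcript Mb-203 (chr15:77022788-77022887, minus strand).
Hba-a2: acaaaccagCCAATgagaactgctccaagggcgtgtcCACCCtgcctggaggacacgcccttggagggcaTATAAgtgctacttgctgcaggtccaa
Hbb-bs: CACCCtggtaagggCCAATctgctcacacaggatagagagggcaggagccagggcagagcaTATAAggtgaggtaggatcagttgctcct
Mb: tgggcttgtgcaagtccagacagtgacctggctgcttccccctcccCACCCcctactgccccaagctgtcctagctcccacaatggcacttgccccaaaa

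In Hba-a2 CCAAT lay 91, CACCC 63 and TATAA 30 bases before the start site, and a further CACCC and a GATAAG lay upstream of the printed stretch at 170 and 185 bases. In Hbb-bs CACCC lay 90, CCAAT 76 and TATAA 29 bases before the start site, with a GATAAG at 209. The windows of Hba-a1 and Hba-a2 shared an identical run of 297 of their 300 bases, with annotated start sites set 3 bases apart. The windows of Hbb-bs and Hbb-bt were identical at 178 of 243 aligned upstream bases. All 4 motifs occurred in the windows of all 4 adult genes. Across all 32851 RefSeq windows of this length CACCC occurred in 57.5%, CCAAT in 37.4%, TATAA in 24.9% and GATAAG in 7.44%, and 4.53% held the first 3 together. The embryonic Hba-x held CACCC and TATAA, and Hbb-y held CACCC and CCAAT. The windows at the 3 RefSeq start sites of Mb held CCAAT, and CACCC at 2 of them, but neither TATAA nor GATAAG. A match in letters says nothing of whether a factor binds there.

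The embryonic genes were at or near 0 in both hearts. Hba-x (ENSMUSG00000055609.8) and Hbb-bh1 (ENSMUSG00000052217.6) were listed at 0 reads in both replicates in the gene table. Hbb-y (ENSMUSG00000052187.4) held 1 read in replicate 1, or 0.06 TPM, and 0 in replicate 2. A count of 0 allows up to 3 reads, which would be 0.164 TPM in replicate 1 and 0.144 in replicate 2 for Hba-x, and 0.188 TPM in replicate 1 and 0.166 in replicate 2 for Hbb-bh1. The direct table gave Hba-x 1 read in replicate 1 and 3 in replicate 2, and Hbb-bh1 4 reads in replicate 1 and 0 in replicate 2. No fold change between the hearts was taken for these genes. By comparison Hbb-bs held 122406 reads in replicate 1 and 40924 in replicate 2.

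Of the other globin genes of mouse, 6 were found in the tables. The theta-like genes Hbq1a and Hbq1b lie beside the alpha genes on chromosome 11. Hbq1a held 7.68 estimated reads in replicate 1 and 2.68 in replicate 2, and Hbq1b 4.32 in both. Their posterior SDs were again equal within the pair, at 1.49 reads in replicate 1 and 0.70 in replicate 2. Adgb, which encodes androglobin, a testis globin, held 4 reads in replicate 1 and 1 in replicate 2. Hbb-bh2 and the pseudogenes Hbb-bh0 and Hbb-bh3 were listed at 0 in both hearts. The symbols Hbb-b1 and Hbb-b2, used for the adult beta genes of another mouse haplotype, were not matched in the annotation.

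Mb was the most even of the abundant globins. Mb (ENSMUSG00000018893.15, chromosome 15, 77015487 to 77050670) had 7575 TPM in replicate 1, against 7784 TPM in replicate 2, or 7679 ± 148 (SD, n = 2). It ranked 2 among nuclear protein-coding genes in replicate 1 and 3 in replicate 2, and made 1.96% of their TPM in replicate 1 and 1.97% in replicate 2. The ratio between the hearts was 1.01-fold (log2 ratio 0.013, interval 0.0044 to 0.022), and 9.68% of the compared genes had a ratio closer to 1. Its sign depended on the scaling, at -0.034 with total counts and -0.159 with the spike-ins. Relative to nuclear protein-coding genes without adult hemoglobin, rescaled to the same sum as TPM, Mb was at 20681 in replicate 1 and 20071 in replicate 2. Hbb-bs was at 0.992 of the Mb level in TPM in replicate 1 and at 0.285 in replicate 2. With the main quantifier the order by TPM was Mb, Hbb-bs, Hba-a1, Hba-a2 and Hbb-bt in both hearts, with different gaps. This order depended on the quantifier. The second quantifier put Hba-a1 (13335 TPM) and Hbb-bs (13043 TPM) above Mb (9461 TPM) in replicate 1. In replicate 2 it put Mb first at 9836 TPM, followed by Hba-a1 at 4356 and Hbb-bs at 3858.

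Mb has 6 annotated transcripts, and the 2 transcript tables disagreed on which of them was the main one. In the table from aligned reads Mb-202, which starts at an upstream exon (position 77050670), held 38.6% of Mb TPM in replicate 1 and 38.0% in replicate 2, or 38.3 ± 0.48%. Mb-206 followed with 34.7% in replicate 1 and 35.9% in replicate 2. Mb-203, which starts beside the first coding exon (position 77022787), held 25.0% in replicate 1 and 24.9% in replicate 2. Mb-201 held 1.71% in replicate 1 and 1.19% in replicate 2, and Mb-204 and Mb-205 were at 0. In the direct table Mb-203 led with 57.0% in replicate 1 and 55.1% in replicate 2, and Mb-202 held 22.7% in replicate 1 and 23.5% in replicate 2. In replicate 1 Mb-205 held 11.9%, Mb-201 6.90% and Mb-206 1.52% in that table, and in replicate 2 they held 13.9%, 6.86% and 0.634%. For each of the 5 transcripts with any reads, the hearts lay closer to each other within a table than the tables did within a heart.

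**Figure D3:**
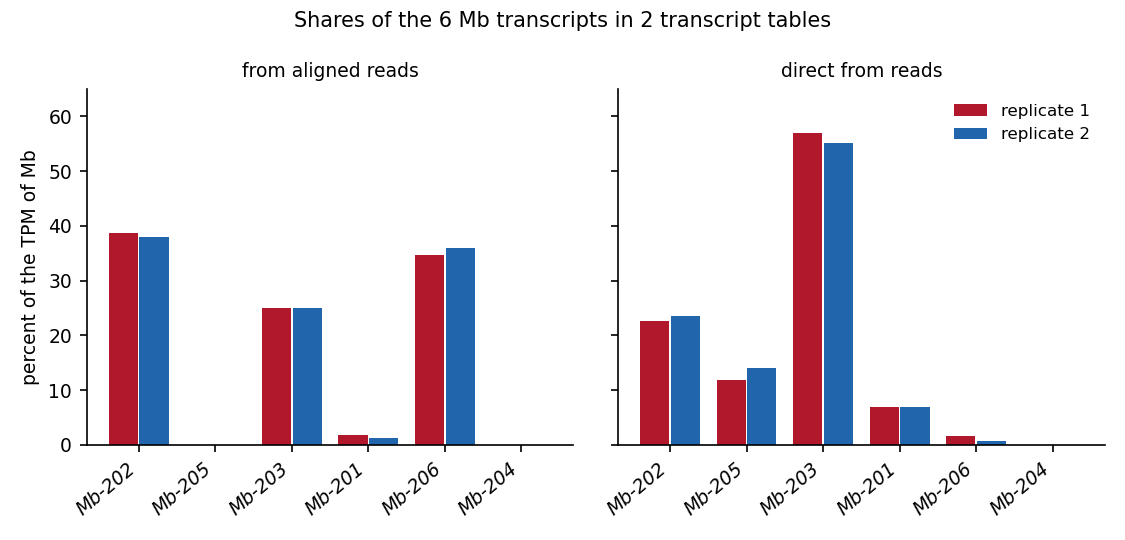
Percent of the TPM of Mb given to each of its 6 transcripts in replicate 1 (red) and replicate 2 (blue), from the table of aligned reads (left) and the table made directly from reads (right). Mb-202 and Mb-206 lead on the left with 38.6% and 34.7% in replicate 1, and Mb-203 leads on the right with 57.0%.

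The tables also differed in the share of transcripts with the whole coding sequence. Mb-201, Mb-202, Mb-203 and Mb-205 carry the whole coding sequence of 465 bases with the stop codon, which is 154 codons, whereas Mb-206 starts in an intron (position 77021963) and codes over 300 bases, without the first coding exon. Transcripts with the whole coding sequence held 65.3% of Mb TPM in replicate 1 and 64.1% in replicate 2 in the table from aligned reads, and 98.5% in replicate 1 and 99.4% in replicate 2 in the direct table. By start site the tables came closer for the upstream exon: Mb-202 and Mb-205 together held 38.6% in replicate 1 and 38.0% in replicate 2 from aligned reads, and 34.5% in replicate 1 and 37.4% in replicate 2 in the direct table. Few windows of 100 bases tell these transcripts apart. Of the 1005 windows of Mb-203, 194 (19.3%) occurred in no other Mb transcript, and the values were 147 of 959 (15.3%) for Mb-202 and 75 of 666 (11.3%) for Mb-206. The deposited posterior SDs in replicate 1 were 874 reads for Mb-202, 822 for Mb-203 and 532 for Mb-206, beside counts of 86979, 58937 and 54214.

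The strand setting of the authors' counting is not given in the sources used here, so genes on the opposite strand were checked. Mb is overlapped by the antisense gene Gm49540 over 412 bases, which held 17 reads in replicate 1 and 18 in replicate 2, and by Apol6, with 14 reads in each. Cygb is overlapped by Prcd, with 8 reads in replicate 1 and 11 in replicate 2. These counts are small beside the 201941 Mb reads of replicate 1 and 235244 of replicate 2, and beside the Cygb reads.

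Cygb (ENSMUSG00000020810.5, chromosome 11, 116645595 to 116654313) had 15.9 TPM in replicate 1, against 19.3 TPM in replicate 2, or 17.6 ± 2.4 (SD, n = 2). It held 1097 reads in replicate 1 and 1515 in replicate 2. It was the only one of the 6 compared globin genes that was lower in replicate 1 with the main scaling, with a ratio of 0.851 (log2 ratio -0.23, interval -0.35 to -0.12), which did not reach 2-fold. With the spike-in scaling the log2 ratio was -0.40. Cygb has 1 annotated transcript, and no window of it occurred elsewhere. The fibroblast and pericyte list marks the cells where Cygb is mainly known. It had 0 of 8 genes at 2-fold, beside 0.369% of all genes higher in replicate 1 and 0.201% higher in replicate 2. A count of 0 in so short a list is no result about it. The median log2 ratio of the list was -0.02, and Dcn, which encodes decorin, was at 137 TPM in replicate 1 and 154 in replicate 2.

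Ngb (ENSMUSG00000021032.13, chromosome 12, 87097531 to 87102539) held 1 read in each heart, or 0.04 TPM in replicate 1 and 0.02 in replicate 2, below the level that 3 reads would give. None of the 8 neuron markers had a mean of 50 reads, and their summed level was 0.83 TPM in replicate 1 and 0.65 in replicate 2. Dbh, the enzyme that makes noradrenaline, led them with 50 reads in replicate 1 and 36 in replicate 2.

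Genes of red blood cells were split between those that were higher in replicate 1 along with the hemoglobins and those that were not. Of 29 erythroid genes found, 19 had enough reads, and 6 of the 19 passed 2-fold with the higher value in replicate 1 and 0 with the higher value in replicate 2, beside 0.369% and 0.201% of all genes. Their median log2 ratio was 0.29, beside -0.01 for all genes. Slc4a1, which encodes the band-3 anion transporter, had 99 reads in replicate 1 and 23 in replicate 2, a ratio of 4.97. Alas2, the red-cell enzyme for the first step of heme synthesis, was 3.40-fold higher, with 80.8 TPM in replicate 1 against 25.5 TPM in replicate 2. Also past 2-fold were Tent5c (3.01-fold), which encodes a poly(A) polymerase, Slc25a37 (2.46-fold), which encodes the mitochondrial iron importer mitoferrin, and Isg20 (2.30-fold), which encodes an exonuclease. Isg20 had 128 reads in replicate 1 and 65 in replicate 2, and its counting interval (log2 0.77 to 1.66) reached below 2-fold.

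Other genes of the list, some of which heart muscle or vessels are also known to make, stayed under 2-fold. The spectrin and ankyrin genes Sptb and Ank1, whose products line the red-cell membrane, stood at 36.2 ± 1.2 and 135.5 ± 5.6 TPM with log2 ratios of -0.02 and -0.03. Aqp1, a water channel of red cells and endothelium, was at 161 ± 16 TPM with a log2 ratio of -0.15. Bpgm, which makes the red-cell regulator of oxygen affinity 2,3-bisphosphoglycerate, and Mkrn1 stood between, with 1.88-fold and 1.76-fold more in replicate 1. Rhag, a membrane gene of red-cell precursors, was rare, with 6 reads in replicate 1 and 4 in replicate 2. Hbb-bs exceeded Alas2 93.0-fold in TPM in replicate 1 and 86.8-fold in replicate 2. Over Slc4a1 it was 5823-fold in replicate 1 and 13844-fold in replicate 2, but Slc4a1 was low, at 1.29 TPM in replicate 1 and 0.16 in replicate 2. The counting interval of the log2 ratio of Slc4a1, 1.67 to 3.06, held the 1.81 of Hbb-bs, so a departure of Slc4a1 from the hemoglobins is not shown.

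**Figure D4:**
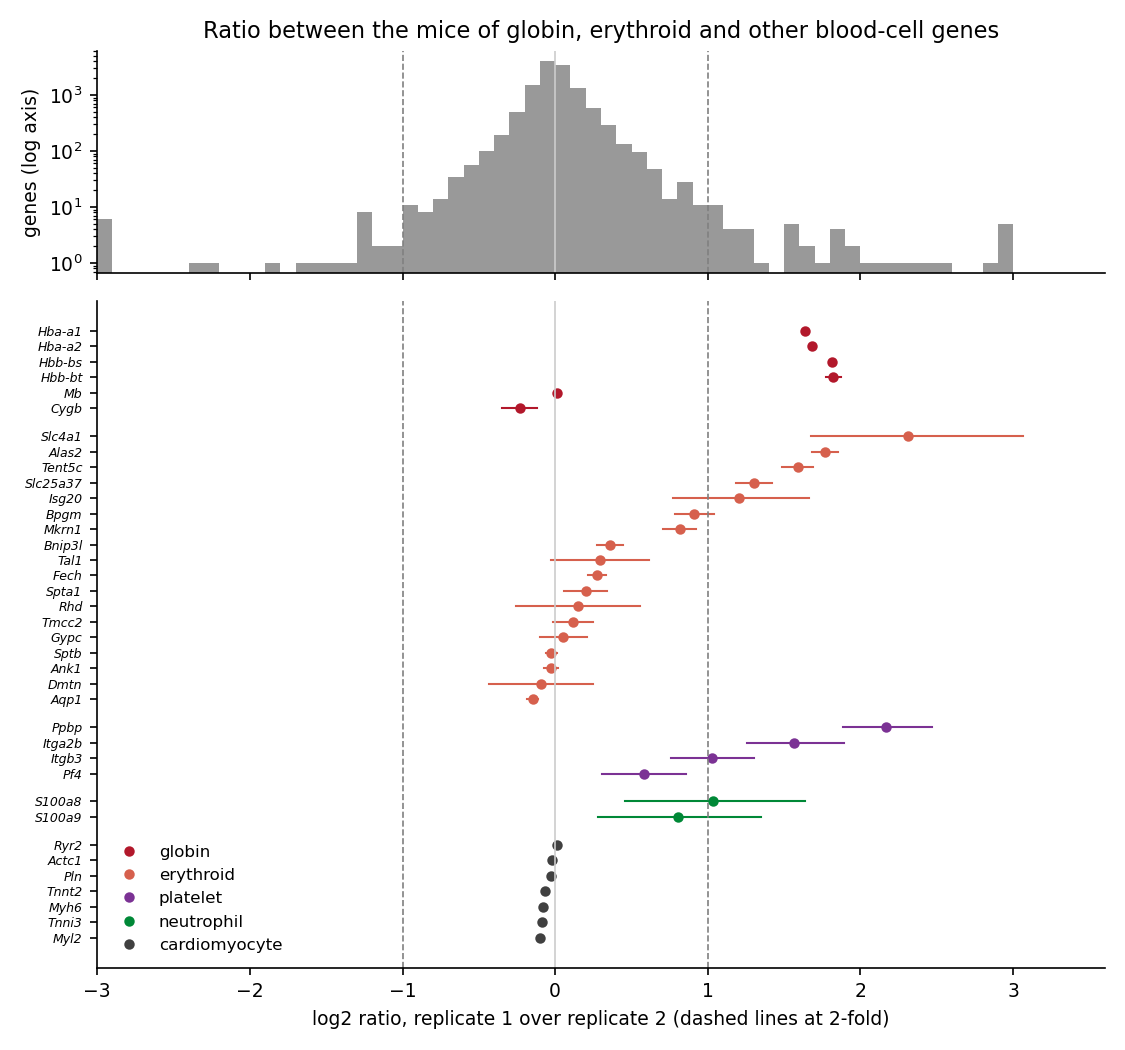
Log2 ratio of replicate 1 over replicate 2. The upper panel counts all compared genes in bins of 0.1 (log axis, with genes beyond 3 in either direction in the outermost bars), and the lower panel shows the 6 compared globin genes and erythroid, platelet, neutrophil and cardiomyocyte genes, with 95% exact counting intervals as bars. The 4 adult hemoglobin genes lie between 1.64 and 1.82, beside Alas2, and Mb lies at 0.013 with the cardiomyocyte genes.

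Platelet markers were the list of other blood cells with most compared genes past the threshold, while the neutrophil and lymphocyte lists held few genes with enough reads. Beside 0.369% of all genes past 2-fold with the higher value in replicate 1, 3 of 4 platelet genes with enough reads passed it: Ppbp, a platelet chemokine (4.49-fold, with 16.0 TPM in replicate 1 against 3.67 TPM in replicate 2), Itga2b (2.95-fold) and Itgb3 (2.03-fold), the chains of the platelet fibrinogen receptor. The counting interval of Itgb3 (log2 0.76 to 1.30) reached below 2-fold. The remaining compared platelet gene, Pf4, was 1.49-fold higher in replicate 1 (log2 interval 0.31 to 0.86) and did not reach 2-fold. The whole platelet list of 8 summed to 44.1 TPM in replicate 1 and 20.9 in replicate 2. Of 2 neutrophil genes with enough reads, S100a8 was 2.04-fold and S100a9 1.74-fold higher in replicate 1, and the list of 8 summed to 13.7 TPM in replicate 1 and 7.70 in replicate 2, with Ngp at 0 in both. S100a8 had 70 reads in replicate 1 and 40 in replicate 2, and its counting interval (log2 0.46 to 1.64) also reached below 2-fold. The lymphocyte list of 9 summed to 10.6 TPM in replicate 1 and 5.78 in replicate 2, with Ighm 1.53-fold higher. The neutrophil genes Camp, with 0 reads in replicate 1 and 1 in replicate 2, and Mmp8, with 5 in replicate 1 and 7 in replicate 2, went the other way. Macrophage markers had 0 of 8 genes at 2-fold, as most genes did, and summed to 133 TPM in replicate 1 and 135 in replicate 2. The part of blood cells in the difference between the hearts was not tested, and the labels used here do not say whether the hearts were flushed.

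Markers of heart muscle, the main tissue by label, were abundant. All 7 cardiomyocyte markers were compared, among them Myl2 at 8071 ± 621 TPM and Myh6 at 7699 ± 573 TPM (SD, n = 2). Their log2 ratios ran from -0.10 to 0.01. That put 0 of 7 at 2-fold, beside 0.369% of all genes higher in replicate 1 and 0.201% higher in replicate 2, so this count is no result about the list. Acta1, which heart muscle also makes, was the only skeletal muscle marker with enough reads, and the fast myosin gene Myh2 was at 0 in both hearts.

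Of the 9 enzymes of heme synthesis 1, the red-cell form Alas2, was at 2-fold, and the median log2 ratio was -0.003. Because 12382 of the 12453 compared genes stayed under 2-fold, a count of 0 in the short lists that follow is no result about those lists, and their values are given as a description. Alas1, the form of the first enzyme in other tissues, stood at 165 ± 7 TPM, above Alas2 in both hearts, with a log2 ratio of -0.01. Fech, the last enzyme of the pathway, was 1.21-fold higher in replicate 1, with 94.3 TPM against 79.6 TPM in replicate 2. Genes that clear free hemoglobin and heme had 0 of 7 compared genes at 2-fold (median log2 ratio -0.05). Among them Cd163, the macrophage receptor for haptoglobin-bound hemoglobin, was at 6.82 TPM in replicate 1 and 6.23 in replicate 2, and Hmox1, the inducible heme oxygenase, at 3.64 TPM in replicate 1 and 3.46 in replicate 2. All 5 reductase genes that return oxidized hemoglobin or myoglobin to the oxygen-binding form were compared, with 0 at 2-fold, and Cyb5r3, a reductase of cytochrome b5, was at 32.3 ± 1.6 TPM.

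Of 12 genes of the switching and erythroid regulator list, 7 had enough reads and 0 of the 7 were at 2-fold (median log2 ratio 0.03). Klf1 and Gata1, transcription factors that drive the adult globin genes in red-cell precursors, held 0 and 4 reads in replicate 1, against 3 and 6 reads in replicate 2. Zbtb7a, a repressor of fetal globin in human cells, was present at 16.5 ± 0.9 TPM, and Bcl11a, another such repressor, at 1.62 TPM in both. Of 12 known regulators of Mb and of oxidative muscle genes, 0 were at 2-fold (median log2 ratio -0.05), with Mef2a at 48.3 ± 4.5, Mef2d at 47.2 ± 3.2 and Ppargc1a at 46.3 ± 4.4 TPM. The oxygen-sensing list had 0 of 9 compared genes at 2-fold (median log2 ratio -0.01), led by Egln1, an oxygen-dependent hydroxylase of the hypoxia-inducible factors, at 141 ± 3 TPM and Epas1, which encodes one of those factors, at 103 ± 5 TPM. The nitric oxide list had 0 of 8 at 2-fold, with a median log2 ratio of -0.12. All 8 values were below 0, beside 5973 of the 12453 compared genes that were above 0. Most of the 8 counting intervals included 0. The lowest value was that of Nostrin, at -0.81 with 66 reads in replicate 1 and 136 in replicate 2.

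By the ratio alone, the 5 compared genes nearest to Hbb-bs had log2 ratios from 1.76 to 1.94, and Alas2, Tubb1, Mrpl23 and Nrgn were among them. Tubb1 encodes the beta-tubulin of platelets and had 232 reads in replicate 1 and 73 in replicate 2. Nrgn, which encodes the calmodulin-binding protein neurogranin, had 243 reads in replicate 1 and 74 in replicate 2. Mrpl23, a mitochondrial ribosomal protein gene, had 91.2 in replicate 1 and 28.3 in replicate 2. The 5 nearest to Mb included Eme2, Eea1, Eif3a and Tpm4, and the farthest of the 5 was 5.1e-05 from its log2 ratio of 0.013. Eea1 encodes an early endosome protein, Eif3a a subunit of a translation initiation factor and Tpm4 a tropomyosin. This likeness rests on 2 libraries, and a ratio near 1 is shared by most genes.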

How the data were processed

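Total RNA-seq of 2 hearts was analysed from 3 deposited tables per library. Per the file headers, the authors' gene table and their transcript table from aligned reads hold expected counts, TPM, FPKM and posterior values (the posterior SD of the count is used here as a score of uncertainty), and a second transcript table, made directly from reads, holds estimated counts and TPM, summed here per gene. The deposited notes name mm10 and GENCODE M21. The aligner and the quantifier were not given in the sources used here. In the gene table the effective length was the length minus 99 bases for all 10 genes.

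Ratios of replicate 1 over replicate 2 used expected counts, rounded to whole reads, with edgeR 4.0.16 (TMM scaling, prior count 0.5). They were read among 12453 genes with a mean of at least 50, with a 2-fold threshold. With 1 library per mouse no test was possible, and edgeR served for scaling only. The ratio step was tested on simulated data. DESeq2 1.42.0 size factors, total counts, spike-ins, TPM ratios, a prior count of 5, other filters and 1.5-fold were alternatives. Coding sequences were aligned with Biopython 1.88. Intervals are at 95% and cover counting error only, and a count of 0 was taken to allow 3 reads.

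The members and the 17 gene lists were chosen with earlier results of these data known, so no list counts as independent support. Genes named in the text are all 10 members and their transcripts, other globin genes, list members at 2-fold, up to 4 of each list by mean TPM, and the 5 genes nearest to Hbb-bs and to Mb by ratio, except a few that are not reported here. Others named (Rhag, Bpgm, Mkrn1, S100a9, Ighm, Ngp, Camp, Mmp8, Gm42418, CT010467.1, Lars2, Myh2, Klf1, Gata1, Bcl11a, Cd163, Hmox1, Acta1, Dbh and Nostrin, the alpha pseudogenes and overlapping genes) were chosen after their values were seen.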

Additional observations from a re-analysis of the deposited data

How the results depend on the processing

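All 4 adult hemoglobin genes stayed at least 2-fold higher in replicate 1 under each scaling, prior count, filter, fold threshold and quantifier run. The count of members was 4 in each except with no filter on low counts, where Hbb-y, with 1 read against 0, made it 5. The share of adult hemoglobin was 3.43% in TPM and 0.921% in expected counts, which are not divided by length. It was 4.17% in the direct table, 3.37% in posterior mean TPM, and 1.62 to 5.24% on leaving out 1 replicate in turn. The SD of 2.56 over 2 mice is too large to read stability from these values. The level of Mb moved with the unit and the table by more than its SD of 148 TPM. It was 7524 in posterior mean TPM, 9649 TPM in the table made directly from reads, 19671 when TPM were rescaled over nuclear protein-coding genes alone, 20376 when adult hemoglobin was left out of these too, and 6070 in FPKM. With counts direct from reads and the effective lengths of the gene table, an alternative chosen after seeing the data, it was 10151. It was 7575 to 7784 TPM with either replicate left out. Alpha over beta in TPM was 1.21 in the direct table, against 1.54. The alternative chosen after seeing the data gave 1.43, so with the lengths held the same the tables were closer. Leaving out either replicate gave 1.46 to 1.63. The share of Mb-202 was 23.1% in the direct table, against 38.3%, and 38.0 to 38.6% with either replicate left out. No paired analysis was possible because there is 1 group. The precision of the 3 embryonic genes, Ngb and the splits within the adult pairs is limited by depth and by shared sequence.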
